A study of Danio rerio with 228 samples.

Results

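Unexposed zebrafish embryos of mixed fish origin were compared with unexposed embryos of Ottawa origin. The comparison took the 4 DMSO pools titled as mixed controls and the 6 DMSO pools titled as Ottawa controls, 10 of 228 libraries, and all probes of the panel. Another 2 DMSO pools, which the submitters call outliers and left out of their contrasts, carry the Ottawa label and are placed beside them. Mixed pools came from fish of the Ottawa and the Montreal breeding facility, and Ottawa pools from Ottawa fish. The labels do not say how many embryos of a mixed pool came from each facility, and no group of Montreal fish alone was analysed here. Every pool was made of 10 whole embryos kept in 0.1% DMSO from 4 to 120 h post fertilisation, with no fluorinated chemical. The series exposed other pools to 9 per- and polyfluoroalkyl substances. It used these DMSO groups as controls for those other than PFNA, mixed pools for 1 set of chemicals and Ottawa pools for another. Another 16 DMSO pools are titled as PFNA controls, though only some of their sample ids name PFNA.

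Laboratory zebrafish stocks are outbred and carry many segregating variants, so embryos of different facilities can differ in gene expression without any treatment. Genes of the major histocompatibility complex (MHC), which present peptides to T cells, are among the most variable genes of vertebrates. RNA was read by TempO-Seq, in which neighbouring detector oligonucleotides anneal to a short stretch of a transcript, are ligated and are counted by sequencing. A probe therefore reports that stretch and not the whole gene, and whether the stocks differ in sequence under a probe was not tested.

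The mixed libraries held 2504604 to 3197641 counts and the Ottawa libraries 2981853 to 3679118. Mixed totals were lower on average, 2886180 ± 301286 against 3327218 ± 268494 (SD, n = 4 and 6), with an exact permutation p of 0.0619 (two-sided) and an adjusted p of 0.186 over 3 measures. RNA yield was 252 ± 82.6 against 287 ± 13.4 ng/µl (exact permutation p = 0.376), and mixed pool 1 had 131 ng/µl. The RNA integrity number was 9.80 ± 0.245 against 9.58 ± 0.232 (exact permutation p = 0.219), where 0.00476 is the smallest p that 210 splits allow. No label ties a pool to a spawning of its own, and the p-values therefore reflect only how far these pools differed, which may be technical. In whole embryos, fewer cells of a type and less RNA per cell cannot be told apart.

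Several libraries went against their origin label. Both left-out pools, labelled Ottawa, lay with the mixed pools at the probes that separated the groups most, as described after the control results. Of the exposed pools labelled mixed, those of PFOS at 40 µM lay with the Ottawa pools. Those of lower PFOS concentrations were spread from the Ottawa range into that of the other mixed pools. Neither set enters the main comparison of controls, and the main results on exposed pools are given with and without PFOS.

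Of 3183 probes, 2612 passed the filter on low counts and were tested, and 571 did not pass. The mixed pools differed from the Ottawa pools at 4.67% of the tested probes, with 91 probes (3.48%) higher and 31 (1.19%) lower in mixed pools by edgeR's quasi-likelihood test at an adjusted p under 0.05. An unadjusted p under 0.05 was found at 494 probes (18.9%). The larger differences all lay in 1 direction. A called difference of at least 4-fold was found at 39 probes (1.49%), each of them higher in mixed pools. Of these, 17 were at least 8-fold and 13 at least 16-fold apart. The largest fall was 3.95-fold at the N-cadherin gene cdh2, and 9 called probes were at least 2-fold lower in mixed pools against 60 higher. Levels, as counts scaled to library size (CPM), did not overlap between the groups at 6.93% of the tested probes. They did not overlap at 75 of the 91 higher probes, at 26 of the 31 lower ones and at 35 of the 39. At 26 of the 39 the Ottawa mean was under 5 CPM, so these probes were near their floor in Ottawa pools. The call nearest the threshold was the collagen gene col9a2 (log2 difference −0.72, adjusted p = 0.0494), and zgc:162544 just missed it (0.68, adjusted p = 0.0514).

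When each of the 10 libraries was left out in turn, the count of called probes ranged from 60 without mixed pool 4 to 156 without mixed pool 3. It was 69 without mixed pool 1, 78 without mixed pool 2 or Ottawa pool 2, and 79 without Ottawa pool 6. Of the 39 probes at 4-fold or more, 29 kept their calls without each single library. Of all 91 higher probes 44 did, and of the 31 lower probes 4. With both left-out pools counted as Ottawa, edgeR called 0 of 2659 probes, DESeq2 called 0, and an unadjusted p under 0.05 was found at 7.22%.

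**Figure D1:**
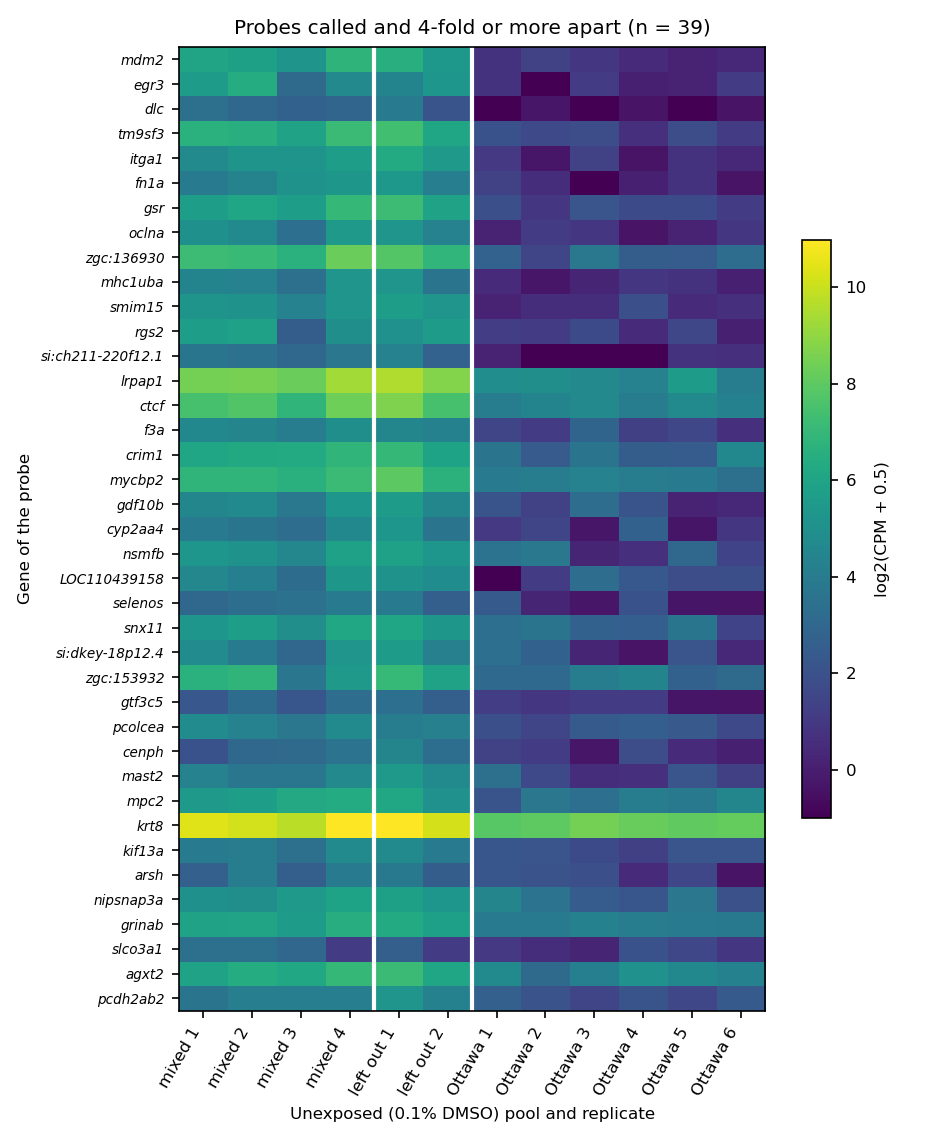
Levels of the 39 probes that were called and at least 4-fold apart, as log2(CPM + 0.5), in the 4 mixed, 2 left-out and 6 Ottawa unexposed pools, ordered from the largest difference at the top. The left-out pools, labelled Ottawa, show the higher levels of the mixed pools, and 26 of the 39 probes average under 5 CPM in Ottawa pools.

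The probe with the largest difference reads mdm2, the ubiquitin ligase that keeps the tumour suppressor p53 low and is itself switched on by p53. It stood at 62.9, 55.5, 36.8 and 110.7 CPM in mixed pools 1 to 4, and at 0.607 (lowest), 1.01 (median) and 2.00 CPM (highest) in the 6 Ottawa pools. The lowest mixed pool was far above the highest Ottawa pool, and mixed pool 4 was the highest. The fitted log2 difference was 5.86 ± 0.35 (SE; edgeR adjusted p = 1.67e-07). Other members of the p53 and apoptosis list differed less. The growth arrest gene gadd45ga was at 54.7, 47.5, 28.5 and 60.8 CPM against 5.22, 17.7 and 25.0 CPM (lowest, median and highest Ottawa), with a log2 difference of 1.50 ± 0.33 (adjusted p = 0.0192). Its groups did not overlap, but mixed pool 3 came close to the highest Ottawa pool. The ubiquitin-like gene isg15, which interferon induces, was at 78.2, 64.3, 26.6 and 72.9 CPM against 12.7, 21.4 and 31.5, so that mixed pool 3 lay within the Ottawa range (log2 difference 1.48 ± 0.30, adjusted p = 0.0131). Without mixed pool 1 or 4 the calls of gadd45ga and isg15 ended (adjusted p up to 0.0818). The cyclin gene ccng1 was the fourth called member (0.85 ± 0.20), a call that ended without mixed pool 1 or 4 or Ottawa pool 1, 4 or 6. Of 32 list members tested, 4 were higher in mixed pools and 0 lower. The list's median log2 difference was 0.25, against −0.003 over the 2567 genes tested, of which 120 (4.67%) were called. The p53-binding protein gene tp53bp2a, described below, is not in the list and was lower in mixed pools (−1.17 ± 0.21).

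The probes of itga1, fn1a and oclna were among the 12 largest differences, and that of krt8 was the most abundant of the 39. The probe of itga1, a subunit of a collagen-binding integrin, read 25.95, 35.97, 36.5 and 52.2 CPM in mixed pools and from 0.275 to 2.01 CPM in Ottawa pools (median 1.01; log2 difference 5.18 ± 0.36). For the fibronectin gene fn1a, a matrix protein that integrins bind, the mixed pools held 14.9, 19.9, 33.9 and 40.7 CPM and the Ottawa pools 0 to 2.08 CPM (median 0.775; 4.95 ± 0.49). Mixed pools 3 and 4 were the highest for both genes, and no pool of the other group came near. The tight junction gene oclna read 31.5, 26.02, 9.83 and 42.4 CPM against 0.275 to 1.67 CPM (median 0.973; 4.78 ± 0.45), and here mixed pool 3 was the lowest of its group. The keratin gene krt8, which makes filaments of simple epithelia, read 1344, 1159, 849 and 2029.8 CPM in mixed pools and 236 to 356 CPM in Ottawa pools (median 277), a 4.73-fold difference (log2 2.24 ± 0.20, adjusted p = 5.55e-06). Of 49 tested members of the cartilage, bone and matrix list, krt8 and fn1a were higher and col9a2 lower in mixed pools, a called share of 6.12% against 4.67% of all genes tested. The mixed pools held 66.1, 85.3, 115.1 and 51.2 CPM of col9a2, a chain of cartilage collagen IX, against 119 to 148.6 CPM. Its call remained without mixed pool 3 and ended without each other single library (adjusted p up to 0.138). The list's median log2 difference was −0.05.

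In the antigen presentation and immunoproteasome list, 2 of 8 tested members (25%, against 4.67% of all genes called) were higher in mixed pools and 0 lower. The list's median log2 difference was 0.70. Of its 12 members on the panel, 8 passed the filter on low counts. The mhc1uba probe had 1 to 5 counts in each Ottawa pool and passed only through the mixed pools. The 25% thus depends partly on the filter. The MHC class I gene mhc1uba, which presents peptides on the cell surface, read 20.4, 19.5, 10.1 and 37.1 CPM in mixed pools and 0.334 to 1.37 CPM in Ottawa pools (median 0.781). All 4 mixed pools lay above all 6 Ottawa pools, with a log2 difference of 4.62 ± 0.42 (adjusted p = 8.12e-06). The immunoproteasome subunit gene psmb9a read 11.4, 23.7, 13.6 and 36.5 CPM against 2.199 to 12.7 CPM (median 5.18; 1.80 ± 0.46, adjusted p = 0.0388). Its groups overlapped, as mixed pool 1 lay below the highest Ottawa pool. The psmb9a call held without mixed pool 1, mixed pool 3 or Ottawa pool 5 and ended without any other single library (adjusted p up to 0.177). Of the 9 interferon response genes tested, isg15 was the 1 called. In the proteasome list 2 of 16 were higher, psma1 (1.76 ± 0.22) and psmc1a (1.90 ± 0.35), which were named after their values were seen.

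Among genes of redox defence and drug metabolism, the largest difference was at gsr, the glutathione reductase that returns oxidised glutathione to its reduced form. Its probe read 51.5, 64.7, 52.6 and 125.1 CPM in mixed pools and 1.33 to 4.03 CPM in Ottawa pools (median 2.74; log2 difference 4.796 ± 0.32, adjusted p = 4.82e-07). The groups lay far apart, and mixed pool 4 was again the highest. It was the 1 called gene of the 21 tested in the glutathione and redox list, whose median was 0.02. In the xenobiotic metabolism list 5 of 34 genes (14.7%, against 4.67% of all genes tested) were called, 4 higher and 1 lower, with a median of −0.06. The cytochrome P450 gene cyp2aa4 read 15.3, 12.2, 9.19 and 23.97 CPM against 0.303 to 6.05 CPM (median 1.41; 2.88 ± 0.56, adjusted p = 0.00891), without overlap. For the sulfotransferase gene sult1st2 the mixed pools held 170.6, 244, 132.5 and 297 CPM and the Ottawa pools 58.6 to 147.7 CPM (median 91.4; 1.11 ± 0.26, adjusted p = 0.0278), and mixed pool 3 lay inside the Ottawa range. The gene ugdh, whose product makes the sugar acid used to conjugate drugs, read 149.4, 208, 181.04 and 205 CPM against 115.8 to 137.8 CPM (median 131; 0.52 ± 0.12, adjusted p = 0.0291). Both calls ended without mixed pool 2 or 4 or Ottawa pool 2, 4 or 6, and that of ugdh also without Ottawa pool 1 (adjusted p up to 0.112). The other called members, cyp2k16 (0.76 ± 0.20) and the lower cyp3a65 (−0.98 ± 0.24), were named after their values were seen. The call of cyp2k16 remained without mixed pool 3 and ended without each other single library, and that of cyp3a65 ended without mixed pool 2, 3 or 4 or Ottawa pool 3, 4 or 6 (adjusted p up to 0.170).

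The probes of egr3, rgs2 and egr1 were higher in mixed pools and spread widely among them. The transcription factor gene egr3 read 47.6, 84.2, 8.24 and 24.3 CPM in mixed pools and 0 to 1.68 CPM in Ottawa pools (median 0.898; log2 difference 5.36 ± 0.62). The gene rgs2, which shortens G protein signals, followed the same order of pools with 50.7, 57.8, 5.39 and 30.9 CPM against 0.536 to 2.69 CPM (median 1.73; 4.43 ± 0.55). Mixed pool 2 was the highest and mixed pool 3 the lowest for both. The related factor egr1 read 288, 331, 95.8 and 311 CPM against 71.2 to 178 CPM (median 93.999; 1.24 ± 0.31, adjusted p = 0.0374), where mixed pool 3 lay inside the Ottawa range. The egr1 call held without mixed pool 3 or Ottawa pool 5 and ended without each other single library (adjusted p up to 0.129). The Notch ligand gene dlc read 10.22, 7.65, 6.02 and 6.90 CPM, from 86 counts, while the 6 Ottawa pools held 3 counts in all. Its ratio was 50.5 (95% exact interval 16.7 to 250, counting error only).

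Of the 12 largest differences, 3 more were at tm9sf3, zgc:136930 and smim15. The probe of tm9sf3, a membrane protein of the Golgi, read 99.1, 92.99, 58.7 and 141.5 CPM in mixed pools and 1.099 to 3.57 CPM in Ottawa pools (median 2.84; log2 difference 5.29 ± 0.29, adjusted p = 1.45e-07). The probe of zgc:136930 read 149.02, 134, 100.5 and 308 CPM against 2.33 to 13.4 CPM (median 5.73; 4.63 ± 0.38), and that of smim15, a small membrane protein, 36.96, 34.4, 19.3 and 37.8 CPM against 0.594 to 3.30 CPM (median 1.00; 4.53 ± 0.36). In all 3 the lowest mixed pool was pool 3 and the highest pool 4, and no Ottawa pool reached the lowest mixed pool. The calls of the 12 largest differences held without each single library, with adjusted p up to 0.00127 (rgs2). Below them stood probes of widely used genes, named after their values were seen. These were lrpap1, a chaperone of lipoprotein receptors (303 to 646 CPM against 16.6 to 46.7), the insulator protein gene ctcf (113.2 to 323 CPM against 15.8 to 25.5) and mycbp2, a ubiquitin ligase of growing axons (97.7 to 145.5 CPM against 10.18 to 19.5).

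Called probes that were lower in mixed pools differed by less. The adhesion gene cdh2 read 4.33, 8.80, 17.4 and 2.63 CPM in mixed pools and 21.99 to 44.8 CPM in Ottawa pools (median 32.1), a log2 difference of −1.98 ± 0.41 (adjusted p = 0.0144). The vitamin D 24-hydroxylase gene cyp24a1 read 109.3, 108.3, 21.6 and 59.11 CPM against 149.2 to 394 CPM (median 276; −1.91 ± 0.40, adjusted p = 0.0150). No mixed pool reached the lowest Ottawa pool for either gene. The call of cdh2 ended without mixed pool 1 (adjusted p = 0.0536) and that of cyp24a1 without mixed pool 4 (adjusted p = 0.0691). The carnitine palmitoyltransferase gene cpt1ab, the entry step of fatty acids into mitochondria, read 38.5, 45.2, 58.7 and 17.4 CPM against 82.4 to 95.9 CPM (median 91.7; −1.18 ± 0.24, adjusted p = 0.0126). It was the 1 called gene of 31 in the fatty acid oxidation list (3.23%, against 4.67% of all genes tested). The list's median log2 difference was 0.05. The p53-binding protein gene tp53bp2a read 46.4, 38.7, 53.6 and 30.9 CPM against 71.8 to 122.9 CPM (median 92.1; −1.17 ± 0.21, adjusted p = 0.00522). The groups of both were apart, and their calls held without each single library (adjusted p up to 0.0443).

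The hedgehog antagonist gene hhip read 38.9, 34.8, 47.2 and 17.7 CPM in mixed pools and 51.7 to 95.6 CPM in Ottawa pools (median 78.8). Its log2 difference was −1.14 ± 0.24 (adjusted p = 0.0143), a call that held without each single library (adjusted p up to 0.0392). The call ended with replicate number as a block and with a spread pooled over all embryo groups of the batch. The TFIID subunit gene taf7 read 175, 145.8, 167 and 32.8 CPM against 270.2 to 353 CPM (median 317; −1.27 ± 0.33, adjusted p = 0.0396). Mixed pool 4 was the lowest for both genes, and in taf7 it stood apart from the other 3 mixed pools, which lay close together. The call of taf7 remained without mixed pool 3 or 4 and ended without each other single library (adjusted p up to 0.0807). The microtubule-binding gene camsap2a also had mixed pool 4 as its lowest, with 138.8, 163, 207 and 64.7 CPM against 254 to 345 CPM (median 269; −0.98 ± 0.24, adjusted p = 0.0350), and its call remained without mixed pool 3 or 4 or Ottawa pool 3 alone (adjusted p up to 0.0897).

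The other named falls were smaller or less firm. They were smndc1, a splicing factor gene (−1.50 ± 0.39), acmsd, an enzyme of tryptophan breakdown (−0.99 ± 0.25), mllt11 (−0.99 ± 0.23), zgc:113436 (−0.86 ± 0.19) and arid5b, a DNA-binding protein gene (−0.84 ± 0.21). The pools of zgc:113436 were close together in the mixed group, at 25.6, 27.2, 28.9 and 29.6 CPM, below the 36.4 to 65.2 CPM of Ottawa pools. The call of smndc1 ended without each single library other than mixed pool 3, that of acmsd without each other than mixed pool 3 or Ottawa pool 4, and that of mllt11 without mixed pool 1, 2 or 4 or Ottawa pool 1. That of zgc:113436 ended without mixed pool 1, 2 or 4, and that of arid5b without mixed pool 1, 2 or 4 or Ottawa pool 1, 2 or 5. Adjusted p in these settings reached 0.122.

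**Figure D2:**
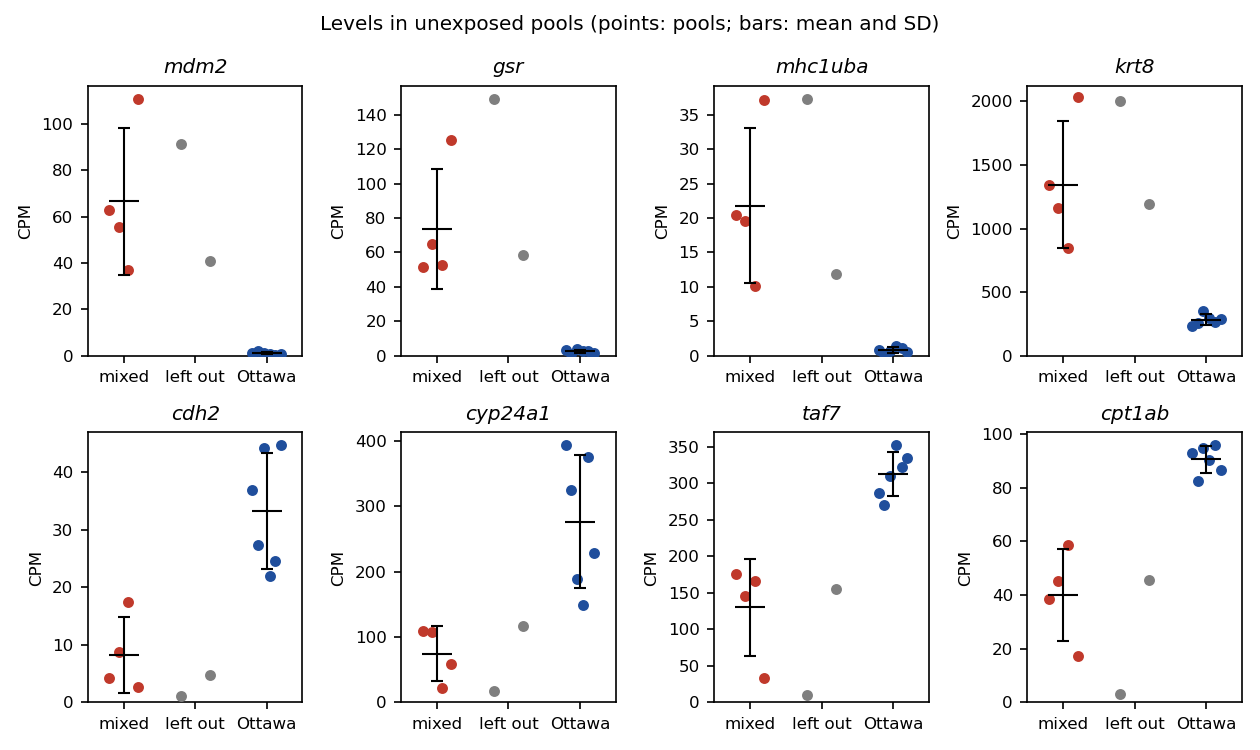
CPM of 4 genes that were higher and 4 that were lower in mixed pools, with each unexposed pool as a point and the mean and SD of the mixed (n = 4) and Ottawa (n = 6) groups as bars. For mdm2 the mixed pools lie between 36.8 and 110.7 CPM and the Ottawa pools at or under 2.00 CPM. The left-out pools (grey) lie with the mixed pools or beyond them, except for pool 2 at cyp24a1. There it reads 116.5 CPM, between the highest mixed (109.3) and the lowest Ottawa pool (149.2).

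Lists of energy metabolism, cell cycle and nerve genes had calls at shares of 3.13% to 9.09%, around the 4.67% of all genes tested. Of 24 carbohydrate genes (8.33% called), the pyruvate kinase gene pkmb was higher and the hexokinase gene hk1 lower. The former read 1588, 1379, 1275 and 1538 CPM in mixed pools and 475 to 916 CPM in Ottawa pools (median 769; log2 difference 0.99 ± 0.17, adjusted p = 0.00432), and its groups were well apart. The latter read 26.7, 26.4, 26.9 and 20.7 CPM against 29.96 to 47.6 CPM (median 37.9; −0.64 ± 0.17, adjusted p = 0.0429), and its call remained without Ottawa pool 4 and ended without each other single library (adjusted p up to 0.134). Of 22 respiratory chain genes, 2 (9.09%) were higher. The cytochrome c oxidase subunit gene cox6c read 2094, 2168, 1530.4 and 2577 CPM against 755 to 1367 CPM (median 982; 1.00 ± 0.18, adjusted p = 0.00479). Next came the chain subunit gene ndufa4 with 93.2, 76.9, 88.8 and 90.3 CPM against 53.2 to 74.2 CPM (0.48 ± 0.13, adjusted p = 0.0494). The groups of both genes did not overlap. The calls of pkmb and cox6c held without each single library, and that of ndufa4 remained without Ottawa pool 6 and ended without each other one (adjusted p up to 0.129).

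Of 64 cell cycle and DNA replication genes, 2 (3.13%) were higher and 0 lower. The maintenance DNA methyltransferase gene dnmt1 read 18.5, 32.1, 18.1 and 30.5 CPM in mixed pools against 3.48 to 17.9 CPM (median 5.58; log2 difference 1.56 ± 0.40, adjusted p = 0.0396), and rpa3, a subunit of the single-strand DNA binding complex, 82.2, 62.4, 106.2 and 110.7 CPM against 36.3 to 73.96 CPM (median 43.3; 0.90 ± 0.22, adjusted p = 0.0324). Groups of dnmt1 nearly touched, and those of rpa3 overlapped. Without mixed pool 3 or Ottawa pool 1 or 4 the dnmt1 call remained, without mixed pool 2 or Ottawa pool 4 or 6 that of rpa3, and both ended without each other single library (adjusted p up to 0.131). Of 45 neuron, synapse and glia genes, egr1 was higher and the AMPA receptor gene gria1a lower (4.44% called, median log2 difference −0.15). The latter read 32.2, 29.8, 32.3 and 33.8 CPM against 41.5 to 59.18 CPM (median 50.2; −0.66 ± 0.16, adjusted p = 0.0305), a call that ended without mixed pool 1, 2 or 4 or Ottawa pool 2, 5 or 6 (adjusted p up to 0.0846). The summed neuron markers nefla, slc17a6b and snap25a were also lower in every mixed pool, at 261 to 284 against 293 to 357 CPM. This was 1 of 12 marker lists on the panel, while 6.93% of all tested probes had groups that did not overlap. Of these 3 genes 0 passed the test, and their part in the fall of gria1a was not tested. The tested members of 7 lists gave 0 calls by edgeR, where 4.67% of all genes were called, namely 6 of complement and coagulation, 7 of erythroid genes, 4 of pigment, 18 of heat shock, 15 of retina and lens, 22 of the thyroid and glucocorticoid axis and 21 of hypoxia. These lists were grouped because they held 0 calls, so the 0 follows from that choice. Of these 93 genes, DESeq2 called 2, against 198 of all 2612 probes. The 2 were the heat shock gene hsp70l and the hypoxia factor gene hif1ab. An unadjusted p under 0.05 was found at 16 of the 93 (17.2%, against 18.9% of all probes). Each of the remaining 10 lists held 1 called member, named after its values were seen. Higher in mixed pools were nfkbiaa, an inhibitor of NF-kappaB (1.59 ± 0.31), the clock gene per1b (0.97 ± 0.26), selenos (2.62 ± 0.61), the sterol synthesis gene lss (1.44 ± 0.34), the bile acid carrier gene slc10a2 (1.36 ± 0.29), nop58 of the nucleolus (0.53 ± 0.14) and the muscle gene tcap. Lower were the fatty acid elongase gene elovl6 (−0.65 ± 0.16), the lipoprotein gene apoea (−0.78 ± 0.18) and bcat1, a branched-chain amino acid enzyme (−0.72 ± 0.15). Of these 10, the call of nfkbiaa held without each single library, that of slc10a2 ended without mixed pool 1, that of bcat1 without mixed pool 2 or 4, and that of apoea without mixed pool 1, 3 or 4 or Ottawa pool 4. Those of selenos and lss ended without any of 6 libraries, mixed pools 2 and 4 and Ottawa pools 2 and 6 among them, those of per1b and elovl6 without any of 8 and that of nop58 without any of 9 (adjusted p up to 0.164).

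The tissue markers were checked by list. Of 13 marker lists 12 had members on the panel, and tcap, a muscle gene (0.73 ± 0.18, adjusted p = 0.0313), was the 1 called marker of the 40 present (2.5%, against 4.67% of all genes tested). Its call held without mixed pool 3 or Ottawa pool 1 or 3 and ended without each other single library (adjusted p up to 0.109). Apart from the neuron markers, summed levels of the lists on the panel overlapped between the groups, for example liver at 3985 to 5298 against 4053 to 5832 CPM and epidermis at 13714 to 18382 against 11175 to 16773 CPM. Gonad and germ cell markers (amh, dazl and ddx4) stayed at 9.21 CPM or less in sum. The part of cell composition in the differences above was not tested.

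Of 64 genes with more than 1 probe, 40 had at least 2 probes tested and 5 had a call. Over all tested probes 4.67% were called, and several probes give a gene more than 1 chance of a call. For the mitochondrial pyruvate carrier gene mpc2, probe 86804 read 43.6, 51.7, 73.9 and 83.7 CPM in mixed pools against 3.86 to 22.5 CPM (median 13.3), a log2 difference of 2.25 ± 0.33 (adjusted p = 0.000855). Probe 93429 of the same gene read 1089, 1039, 1219.7 and 383 CPM against 703 to 1024 CPM (median 978; 0.03 ± 0.24, adjusted p = 0.966). The second probe had far more counts and its groups overlapped, with mixed pool 4 low. For the tissue factor gene f3a, which starts blood coagulation, probe 84907 read 23.6, 21.4, 16.5 and 30.9 CPM against 1.07 to 6.71 CPM (median 2.15; 3.105 ± 0.38, adjusted p = 0.000174). Its probe 93405 read 16.5, 15.3, 13.6 and 18.1 CPM against 6.37 to 18.5 CPM (median 13.6; 0.27 ± 0.25, adjusted p = 0.614). Thus 1 probe of each gene separated the groups and the other did not pass the test.

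The remaining genes with several probes differed less. The BMP pseudoreceptor gene bambia read 82.2, 90.7, 101.8 and 126.4 CPM against 44.2 to 77.99 CPM at probe 86761 (log2 difference 0.69 ± 0.17, adjusted p = 0.0376), and its probe 93423 gave 0.25 ± 0.25 (adjusted p = 0.640). The sodium channel subunit gene scn4bb read 126.2, 95.7, 109.4 and 96.5 CPM against 161.7 to 197 CPM (median 178) at probe 93417 (−0.75 ± 0.12, adjusted p = 0.00225), without overlap. At its probe 93416 the difference was −0.36 ± 0.25 (adjusted p = 0.462), and its probe 85149 had 0 counts in the 10 pools, which allows up to 0.0952 CPM over them. The other hhip probe, 85758, read at most 3.02 CPM in any pool and was not tested. The calls at mpc2, f3a and scn4bb held without each single library. That of scn4bb ended on plate 2 alone and with replicate number as a block. That of bambia remained without mixed pool 1 or Ottawa pool 4 or 5 and ended without each other one (adjusted p up to 0.138).

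**Figure D3:**
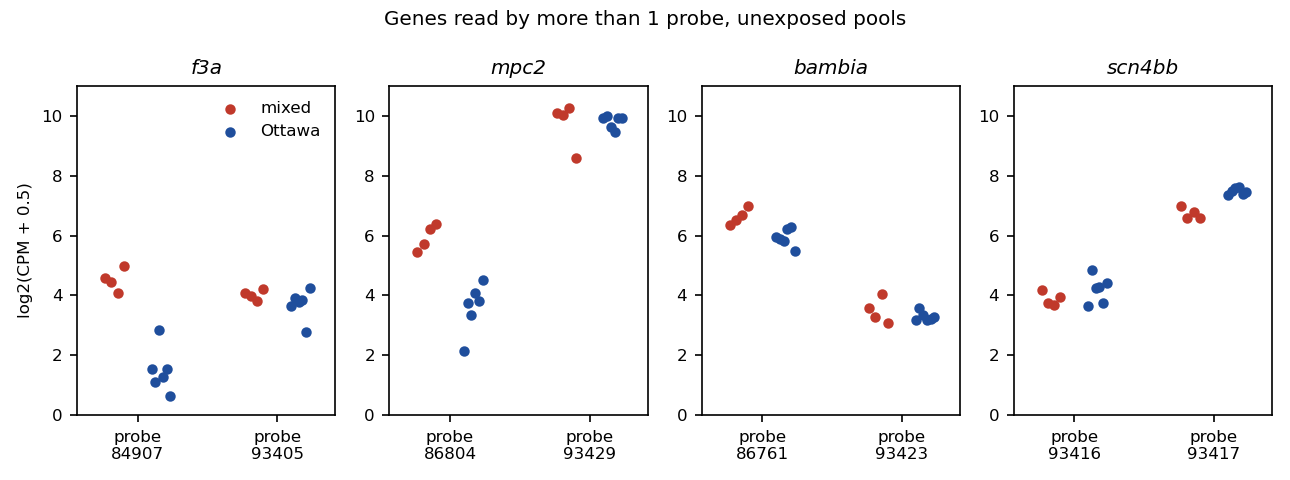
Levels, as log2(CPM + 0.5), of 4 genes that have 2 tested probes each, in the 4 mixed and 6 Ottawa unexposed pools (points). At mpc2 and f3a 1 probe separates the groups (log2 differences 2.25 and 3.105), while the other has overlapping groups (0.03 and 0.27).

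The mixed pools differed among themselves in an ordered way at these probes. Of the 39 probes at 4-fold or more, mixed pool 4 was the highest of its group at 31 and mixed pool 3 the lowest at 28. The median ratio to the mixed mean was 0.938, 0.949, 0.631 and 1.44 in pools 1 to 4. Of the 31 probes lower in mixed pools, pool 4 was the lowest at 21 and pool 3 the highest at 16. Pool 4 was thus the farthest from the Ottawa pools in both directions at these probes and pool 3 mostly the nearest. Over all 2612 tested probes, pool 4 was the highest mixed pool at 707 and the lowest at 754. Pool 3 was the highest at 682 and the lowest at 710. The median over probes of the highest divided by the lowest mixed level was 2.41 for the 39. The median SD among mixed pools on the log2 scale was 0.53 for these probes and 0.30 over all tested probes, against 0.69 and 0.29 among Ottawa pools. The Ottawa levels of these probes rest on few counts.

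Both plates held pools of both groups but unevenly, with 1 mixed and 4 Ottawa pools on plate 1 and 3 mixed and 2 Ottawa pools on plate 2. Among these 10 pools, extraction batches were mostly of 1 group, so within them extraction batch and origin can hardly be told apart. Extraction batches of the exposed pools other than PFNA held both origins. A fit of their lowest concentrations with plate and extraction batch as terms is given below. The 39 probes were chosen on these same pools, so their separation within a plate or batch is a description and no independent check. The same holds for the 31 lower probes, and neither is given with a share over all tested probes. On plate 1, mixed pool 4 lay above all 4 Ottawa pools at 38 of the 39 probes, and on plate 2 the 3 mixed pools lay above both Ottawa pools at all 39. RNA extraction batch 10 held 1 pool of each group, and there the mixed pool was higher at 39 of 39, with a median log2 difference of 3.19, against 2.97 over all pools. At the 31 lower probes the mixed pools were below the Ottawa pools at 31 on plate 1, at 28 on plate 2 and at 31 in extraction batch 10. Of the 10 pools, those in each remaining extraction batch were of 1 group only. Plate 2 alone, with 3 mixed and 2 Ottawa pools, gave 91 calls, of which 58 were also called in all 10 pools, 31 of the 39 included. In that fit 17 of the named probes lost their calls. Smaller differences were found at psmb9a (0.56, adjusted p = 0.580), egr1 (0.61, adjusted p = 0.585), mllt11 (−0.46, adjusted p = 0.311), smndc1 (−0.87, adjusted p = 0.484) and gadd45ga (0.98, adjusted p = 0.133). Calls were also lost at rgs2 (log2 difference 4.15, adjusted p = 0.0581), cdh2 (−1.33, adjusted p = 0.195) and cyp24a1 (−2.16, adjusted p = 0.0561). The others that lost their calls there were scn4bb (probe 93417), camsap2a, acmsd, hk1, col9a2, ugdh, rpa3, ndufa4 and bambia (probe 86761). With the labels' RNA yield as a covariate, 73 probes were called, including 35 of the 39, and 15 of the named probes lost their calls, with adjusted p from 0.0516 (gadd45ga) to 0.120 (col9a2). These were smndc1, taf7, acmsd, mllt11, camsap2a, zgc:113436, arid5b, col9a2, hk1 and gria1a of the lower probes and gadd45ga, rpa3, dnmt1, ndufa4 and egr1 of the higher ones.

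Both left-out pools, labelled Ottawa, were placed beside the 10 pools as a description. Left-out pool 1 lay above all 6 Ottawa pools at 39 of the 39 probes and left-out pool 2 at 38. For mdm2 they read 91.3 and 40.8 CPM, for gsr 149.2 and 58.7 CPM, for mhc1uba 37.3 and 11.9 CPM and for krt8 1999.6 and 1196 CPM, against Ottawa highs of 2.00, 4.03, 1.37 and 356 CPM. At the 31 lower probes, pool 1 was below all Ottawa pools at 29 and pool 2 at 26. On a scale where the Ottawa mean is 0 and the mixed mean is 1, averaged over the 39 probes, they stood at 1.25 and 0.93, while Ottawa pools ranged from −0.11 to 0.10 and mixed pools from 0.82 to 1.15.

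Over 2080 probes with a mean of at least 10 CPM, left-out pool 1 was more than 2-fold from each mixed pool at 5.19% to 8.13% of probes and from each Ottawa pool at 11.3% to 16.4%. For left-out pool 2 the shares were 2.5% to 5.48% and 6.59% to 10.8%. Pairs of mixed pools differed by more than 2-fold at 3.03% to 9.38% and pairs of Ottawa pools at 2.26% to 10.5%. Against the mixed mean, pool 1 had a median ratio of 1.58 at the 39 probes and 0.749 at the 31, and pool 2 of 0.851 and 1.09. Pool 1 thus lay beyond most mixed pools, close to mixed pool 4 with 1.44 and 0.741.

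Left-out pool 1 also departed from all 10 pools at some probes. Of 2560 probes, 4 were more than 2-fold above and 23 more than 2-fold below the range of the 10, against 0 and 3 for pool 2. The pentose phosphate gene rpia read 1.79 CPM in pool 1 and 19.9 to 45.4 CPM in the 10 pools, and dusp6, a phosphatase that switches off the MAP kinase ERK, 14.0 CPM against 74.5 to 465 CPM. For cpt1ab it read 3.28 CPM against 17.4 to 95.9 CPM, for the mitochondrial ribosome gene mrpl53 0.895 against 4.60 to 105.3 CPM, for the activity-induced gene npas4a 0.895 against 4.00 to 32.6 CPM, and for the vasopressin receptor gene avpr1aa 8.65 against 28.6 to 42.2 CPM. Above the range stood the growth hormone receptor gene ghra at 31.3 CPM, where the highest of the 10 was 13.2 CPM, pcdh2ab2, a protocadherin gene, at 37.3 (highest 17.2), the synaptic scaffold gene shank3a at 23.6 (11.1), si:ch211-259g3.4 at 26.3 (12.5), the centromere gene cenph at 21.8 (11.5) and the acetyltransferase gene crebbpa at 234 (126.7).

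In left-out pool 2 the departures were smaller. Below the 10 pools stood adoa, an enzyme that oxidises cysteamine, at 1.61 CPM (lowest of the 10 4.46), si:dkey-253i9.4 at 0.917 (2.75), slc35b1 at 0.688 (1.91), the transhydrogenase gene nnt at 21.6 (42.1), asb3 at 3.67 (7.43) and the glycolysis gene gapdh at 8.26 (15.8). Above them stood the replication kinase gene cdc7 at 13.3 CPM (highest 8.88), ano10a at 8.26 (5.74), si-busm1-266f07.2 at 9.86 (6.90), the RNA sensor gene ifih1 at 38.99 (27.8), si:ch211-236h17.3 at 16.5 (11.9) and the collagen gene col11a2 at 47.9 (34.8). The RNA yield of both pools, 206 and 204 ng/µl, was below that of every Ottawa pool, whose lowest was 270 ng/µl. The integrity number of pool 1 was 9.1, below all 10 pools, and that of pool 2 was 9.9. The part of yield or integrity in these values was not tested.

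**Figure D4:**
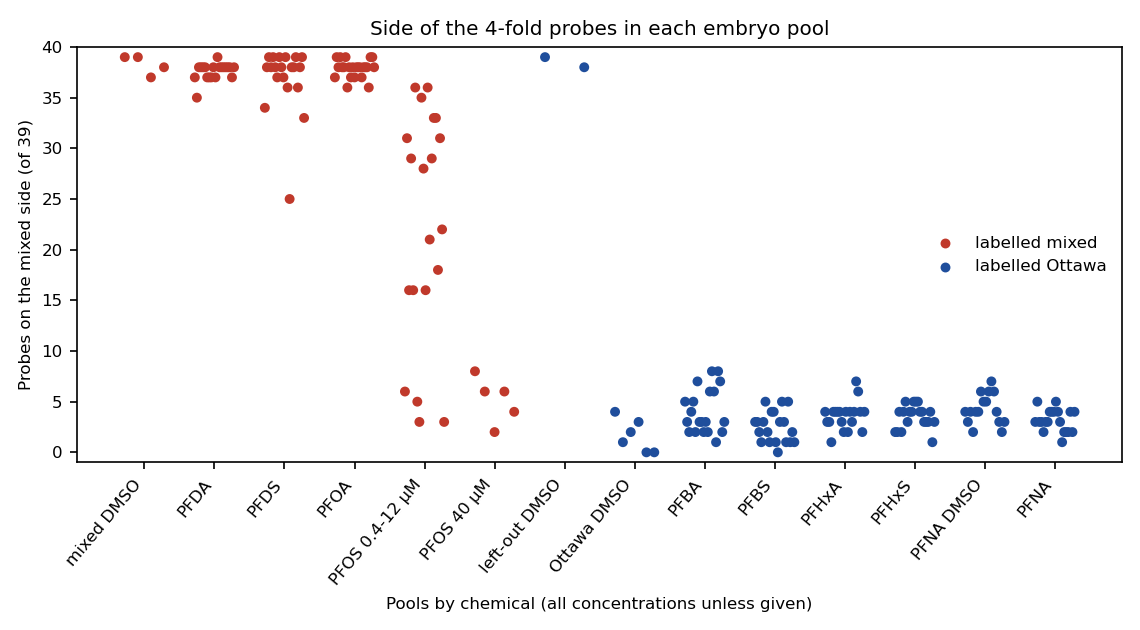
For each of the 216 embryo pools (points), the number of the 39 probes at which its level lay nearer the mixed than the Ottawa mean of the unexposed pools, by chemical, in red for pools labelled mixed and blue for pools labelled Ottawa. Pools of PFDA, PFDS and PFOA show 25 to 39 probes on the mixed side, those labelled Ottawa 8 or fewer apart from the left-out pools at 39 and 38, and PFOS pools 2 to 36.

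Exposed pools share no library with the 10 controls. A probe was counted on the mixed side of a pool when its level lay above the midpoint of the group means of the unexposed pools on the log2(CPM + 0.5) scale. In the 63 exposed pools labelled mixed other than PFOS, 25 to 39 of the 39 probes were on the mixed side (median 38), and in the 80 exposed pools labelled Ottawa 0 to 8 were (median 3). The ranges did not overlap at any concentration of PFDA, PFDS, PFOA, PFBA, PFBS, PFHxA or PFHxS. The lowest mixed value, 25, came from a PFDS pool at 2 µM, and the next was 33. The 16 DMSO pools and 20 exposed pools of PFNA, labelled Ottawa and processed as another batch, had 2 to 7 and 1 to 5. The probes of mdm2 and oclna had 0 counts in the 16 PFNA control pools, which allows up to 0.0510 CPM over them.

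PFOS pools were labelled mixed but as a set were not like the other mixed pools at these probes. Of the 20 pools at 0.4 to 12 µM, values ran from 3 to 36 of 39 (median 25). At 0.4 µM, the lowest concentration, the 5 pools had 6, 31, 16, 29 and 16. The 5 pools at 40 µM had 2 to 8, which is inside the range of the pools labelled Ottawa. For mdm2 the 0.4 µM pools read 1.43 to 27.02 CPM (median 10.4), and the 40 µM pools 0 to 2.19 CPM (median 1.399). The other mixed pools at their lowest concentrations read 11.2 to 95.6 CPM (median 62.6, n = 12) and Ottawa pools at theirs 0.261 to 2.89 CPM (median 0.949, n = 16). Pools of PFOS at 0.4 to 12 µM were thus spread from the Ottawa range into that of the other mixed pools. The 40 µM values lay with Ottawa pools. Exposure and the make-up of the PFOS pools cannot be told apart here.

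The same contrast of origin was fitted on the lowest concentration of each chemical, 17 pools of PFDA (0.12 µM), PFDS (0.06 µM), PFOA (4 µM) and PFOS (0.4 µM) against 16 pools of PFBA and PFBS (8 µM) and PFHxA and PFHxS (6 µM). Each chemical belongs to 1 origin, so origin and chemical cannot be told apart in it. It called 578 of 2576 probes (22.4%), 327 higher (12.7%) and 251 lower (9.74%) in mixed pools. Scaling by total counts gave 599 calls, of which 456 (76.1%) were higher against 56.6% here, when the median log2 difference of all probes moved from 0.01 to 0.09. With plate and extraction batch as terms, the contrast called 516 probes, 33 of the 39 among them in the same direction as in unexposed pools. Without PFOS, and without these terms, 704 of 2600 (27.1%) were called. Of the probes called in unexposed pools and tested here, 100 were called in the same direction, which is 86.2% of these and 17.5% of the 573 exposed calls tested in both. All 33 of the 4-fold probes tested in both were called higher again (38 of 39 without PFOS), with a median log2 difference of 2.32 against 2.88 in unexposed pools, and of 2.64 without PFOS.

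Log2 differences at the lowest concentrations were computed for 10 of the 12 genes with the largest unexposed rises, as egr3 and dlc did not pass the filter there. Among them were 5.21 ± 0.44 for mdm2 (5.59 ± 0.29 without PFOS), 5.15 ± 0.42 for tm9sf3 (5.55 ± 0.22), 5.70 ± 0.43 for itga1 (6.11 ± 0.21) and 4.37 ± 0.36 for gsr (4.72 ± 0.21). The antigen gene mhc1uba gave 4.51 ± 0.41 (4.89 ± 0.25) and krt8 1.95 ± 0.18 (2.23 ± 0.11). Among the lower genes, cdh2 gave −1.99 ± 0.25 (−2.08 ± 0.30), cyp24a1 −1.60 ± 0.26 (−1.76 ± 0.30), cpt1ab −1.14 ± 0.17 (−1.46 ± 0.16) and taf7 −1.18 ± 0.22 (−1.68 ± 0.20), all called. The smim15 probe gave 3.81 ± 0.34 (4.17 ± 0.23), beside 4.53 ± 0.36 in unexposed pools, and dlc, tested without PFOS, gave 3.88 ± 0.38 beside 5.34 ± 0.54. The G protein regulator rgs2 was at 2.29 ± 0.42 (2.61 ± 0.42), beside 4.43 ± 0.55 in unexposed pools. Of the 31 lower probes, 21 were called again. Of the 91 higher ones, 85 were tested in both and 79 were called again.

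Some unexposed calls were not called at the lowest concentrations. The 16 such probes included acmsd (−0.21, adjusted p = 0.366), mllt11 (−0.34, adjusted p = 0.276), elovl6, a fatty acid elongase gene (−0.08, adjusted p = 0.753), bambia (0.45, adjusted p = 0.0634) and ndufa4 (0.27, adjusted p = 0.100). For col9a2 the sign of the fitted difference turned, from −0.72 to 0.27 (adjusted p = 0.649). Its median was still lower in mixed pools, 82.1 CPM without PFOS and 70.9 CPM for PFOS against 109.3 CPM in Ottawa pools, but the mixed pools without PFOS ran from 44.9 up to 1125 CPM. It was the 1 called probe that did so. A test of the difference itself, the interaction of origin with exposure set, called 0 of 2813 probes (0%) by edgeR, with an unadjusted p under 0.05 at 4.44%, and 0 without PFOS. No other tool was run on it. The fitted interaction was −2.14 ± 0.90 (SE) at rgs2 and −0.29 ± 0.35 at krt8. With errors of this size, 0 calls do not show that the difference was the same in both sets. Across the 2545 probes tested in both, Pearson's r of the log2 differences was 0.84, a description over probes, which are not independent.

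**Figure D5:**
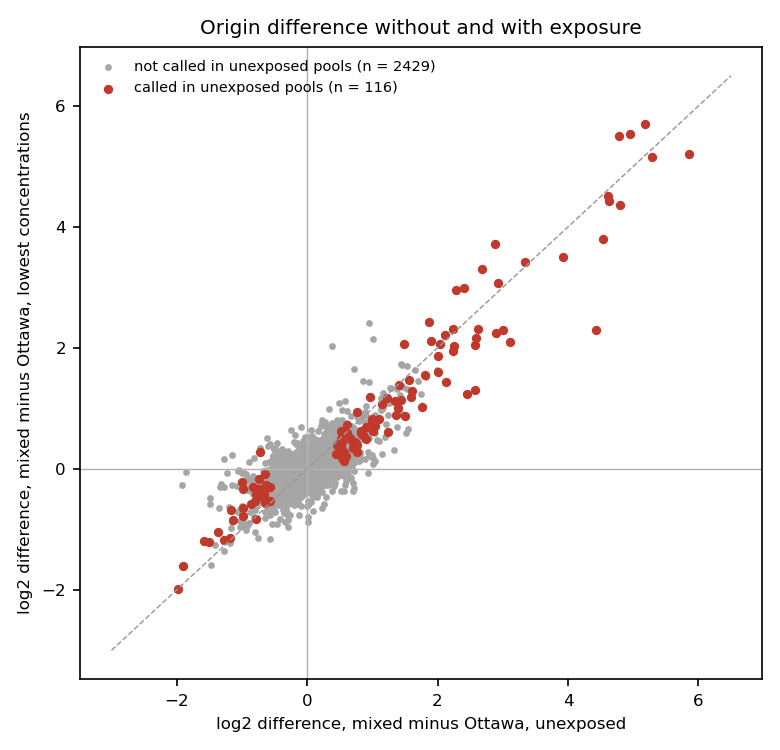
Log2 difference of mixed minus Ottawa pools for 2545 probes, in unexposed pools (4 against 6) on the x axis and at the lowest concentrations (17 against 16) on the y axis, with probes called in unexposed pools in red and equal values on the dashed line. The 33 4-fold probes tested in both have a median of 2.88 on x and 2.32 on y. They were chosen on x, so the lower median on y is a description only. The rgs2 probe lies below the line at 4.43 and 2.29, and its interaction was not called (edgeR adjusted p = 0.981).

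Called probes had called neighbours on the panel about as often as other probes, and the 4-fold probes more often, without a test. By gene order in the RefSeq assembly GRCz12tu, which was used for order only, 38 of the 39 could be placed. Among placed probes, 9.36% had a called probe as a neighbour on the panel. For called probes the share was 9.92%, and for the 4-fold probes 21.1% (8 of 38). The 4-fold neighbours were the kinesin gene kif13a and grinab, ctcf and the transporter gene slco3a1, the aminotransferase gene agxt2 and the transcription factor gene gtf3c5, and smim15 and cenph. Both members were higher in mixed pools in each of these 4 pairs, by log2 differences of 2.00 to 4.53. Unlike them, cd44a, a hyaluronan receptor gene (0.61 ± 0.16), and apip, an enzyme of methionine salvage (−1.36 ± 0.34), were neighbours with opposite signs. The tRNA synthetase gene qars1 (0.54 ± 0.14) and sult1st2 (1.11 ± 0.26) were called neighbours with the same sign, and the call of qars1 remained only without mixed pool 3 or Ottawa pool 5 (adjusted p up to 0.140). The call of cenph and that of gtf3c5 ended without mixed pool 4 (adjusted p = 0.0691 and 0.0519). That of slco3a1 remained only without mixed pool 4. It was lost without each of the other 9 libraries, in 1 of these settings because the probe was not tested. The call of cd44a remained only without Ottawa pool 4 and that of apip only without Ottawa pool 1 (adjusted p up to 0.112). These genes were named after their values were seen.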

How the data were processed

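Each library is a pool of 10 whole embryos read with the TempO-Seq S1500+ zebrafish panel. The authors deposited raw counts per probe. The submitters' processing notes name fastp 0.23.2, STAR 2.7.10b and R 4.4.1, while build and annotation are not given in the sources used. All 3183 probes were read, and 0 columns were left unused. For the 4 mixed and 6 Ottawa pools, edgeR 4.0.16 (R 4.3.3) filtered probes by filterByExpr, scaled by TMM and applied the quasi-likelihood test with Benjamini-Hochberg adjustment and a threshold of 0.05, without covariates. The same test was run on the lowest concentrations and, with an interaction term, on both sets. SE is the absolute log2 difference over the square root of F. Printed CPM use TMM over 216 embryo libraries, and summary scores use log2(CPM + 0.5). The code was tested on simulated data with known changes.

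Gene symbols come from the probe names, and 3114 of 3183 probes matched the reference tables. Members, gene lists and tests were chosen with earlier results of these data known. Named probes were, of called probes with groups that did not overlap and a mean count of at least 10, the 12 highest and the 12 lowest log2 differences, up to 3 called members of each of up to 8 lists, genes with several probes and a call, 6 probes per side for each left-out pool, and the probes beside the threshold. Intervals and limits for counts of 0 (3 counts over the summed libraries) cover counting error only. No pair of the 22 checked agreed within sampling noise (lowest chi-square per degree of freedom 8.62). Alternatives were other scalings, no filter, DESeq2 1.42.0, a replicate block, plate or RNA yield as a term, plate 2 alone, pooled spread, the left-out pools added and each library left out. The interaction without PFOS was chosen after seeing the data.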

Additional observations from a re-analysis of the deposited data

Results flagged for a closer look

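Among the named probes, 5 sets of pool values within a group held 1 pool far from the rest by Dixon's criterion, which is 4.72% of the sets checked, and chance gives about 1 in 20. The hk1 probe read 20.7 CPM in mixed pool 4, below the other 3 mixed pools. The smim15 probe read 3.30 CPM and the cyp2aa4 probe 6.05 CPM in Ottawa pool 4, above the other 5 Ottawa pools. The f3a probe 84907 read 6.71 CPM and the hhip probe 85758 read 3.02 CPM in Ottawa pool 3, again above the other 5. The left-out pools do not enter the main comparison. They lay above every Ottawa pool at 39 (pool 1) and 38 (pool 2) of the 39 probes at least 4-fold higher in mixed pools.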

How the results depend on the processing

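Beside the 91 higher and 31 lower calls, DESeq2's test gave 198 calls, 63.1% of them higher against 74.6%, with 73 lower, a spread pooled over all embryo groups of the batch 232 (110 shared), RNA yield as a covariate 73 (70 shared) and the left-out pools counted as Ottawa 0. Leaving out 1 library gave 60 to 156 calls, with 30 to 38 of the 39 probes at 4-fold or more. DESeq2 scaling (120), total counts (94), no filter (120), plate as a term (174) and plate 2 alone (91) stayed within 1.5 times. A replicate block gave 48 calls (43 shared, 27 of the 39), but the numbers did not pair the pools, since same-numbered pools correlated at −0.076 to 0.071 and 1 of 4 was highest with its own number. No named probe that was called changed sign in any of these settings. With the replicate block 21 named probes lost their calls, cpt1ab, pkmb, hhip and scn4bb (probe 93417) among them. With the pooled spread 5 did, namely hhip, mllt11, smndc1, col9a2 and bambia (probe 86761). The yield difference was −57 to 5.33 ng/µl with 1 library left out, and turned positive (5.33) without mixed pool 1. The difference in total counts was −544858 to −313845, and passed the threshold without mixed pool 4 (−544858, exact permutation p = 0.0357) or Ottawa pool 2 (−510110.5, exact permutation p = 0.0238). The integrity number kept its direction (0.15 to 0.317). At the lowest concentrations the calls ran from 422 to 704, and a replicate block gave 570 there. The interaction gave 0 calls in every setting run. The causes were not tested. Probes with Ottawa levels under 5 CPM rest on few counts, which limits the precision of their fold changes.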
